A study of Mus musculus with 4 samples.

Results

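Notch pathway genes and the transcription factors that set the secretory fate were followed in single cells of the mouse intestinal epithelium. The set held 10 genes, picked by symbol from the 31054 features of the count tables: the receptors Notch1 and Notch2, the ligands Dll1, Dll4 and Jag1, the glycosyltransferase Mfng, the Hes family members Hes1 and Hes6, and the secretory factors Atoh1 and Gfi1. All 10 were found in each table. The series holds 4 libraries of sorted Bmi1-expressing epithelial cells from mice of the genotype Bmi1-GFP, which carry a fluorescent reporter of the Polycomb gene Bmi1. The groups were embryos of day 12.5 (E12.5) or day 17.5 (E17.5), untreated adults and irradiated adults, with 1 library in each. All groups carried the reporter, and no library without it was analysed. The labels give no dose or time of irradiation, no number of animals, no pooling and no sorting gate. These gaps limit how far a library can stand for its stage or treatment.

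In Notch signalling, a ligand on one cell activates a receptor on its neighbour, and the freed intracellular domain of the receptor joins the DNA-binding protein Rbpj to switch on repressors such as Hes1. In the intestine, Hes1 holds down Atoh1, the factor needed for goblet, Paneth and enteroendocrine cells, and cells with Atoh1 display Delta-like ligands that hold their neighbours back from the secretory path. Gfi1 acts downstream of Atoh1 in goblet and Paneth cells, Neurog3 starts the enteroendocrine programme, Hes6 is a relative of Hes1 that can oppose it, and fringe enzymes such as Mfng change how Notch receptors respond to their ligands.

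Basic helix-loop-helix proteins such as Atoh1, Neurog3 and the Hes family bind E-box sequences, written CANNTG, or close variants of them. The 250 bases before the RefSeq start are shown for Dll1, Gfi1, Hes6 and Dll4. Dll1, Gfi1 and Hes6 were higher in cells with Atoh1 or Neurog3 RNA. Dll4 was the ligand with the widest differences between cell types. Among E17.5 epithelial cells of no named lineage, Dll4 was also higher in those with Atoh1 RNA. RefSeq promoters on GRCm38.p6 were given for 8 of the 10 genes and not for Hes1 and Mfng. Where a gene had 2 entries, the one nearest the annotated start was used. Capitals mark CANNTG, which reads as the same motif on both strands.
Dll1, chr17:15376933-15377182, minus strand: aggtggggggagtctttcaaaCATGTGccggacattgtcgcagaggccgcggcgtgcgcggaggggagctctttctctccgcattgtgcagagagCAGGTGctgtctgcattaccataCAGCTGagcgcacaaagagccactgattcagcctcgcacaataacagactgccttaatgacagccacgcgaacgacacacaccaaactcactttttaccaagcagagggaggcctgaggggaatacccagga
Gfi1, chr5:107725806-107726055, minus strand: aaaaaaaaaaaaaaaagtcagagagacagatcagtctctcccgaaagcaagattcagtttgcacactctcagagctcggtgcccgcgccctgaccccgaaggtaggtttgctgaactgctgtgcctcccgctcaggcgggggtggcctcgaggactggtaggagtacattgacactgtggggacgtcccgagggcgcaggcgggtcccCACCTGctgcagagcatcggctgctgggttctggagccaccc
Hes6, chr1:91414039-91414288, minus strand: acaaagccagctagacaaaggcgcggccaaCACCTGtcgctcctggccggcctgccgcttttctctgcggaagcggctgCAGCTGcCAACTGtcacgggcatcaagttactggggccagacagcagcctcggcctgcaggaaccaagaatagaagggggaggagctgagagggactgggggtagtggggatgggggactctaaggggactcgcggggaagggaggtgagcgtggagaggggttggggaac
Dll4, chr2:119325534-119325783, plus strand: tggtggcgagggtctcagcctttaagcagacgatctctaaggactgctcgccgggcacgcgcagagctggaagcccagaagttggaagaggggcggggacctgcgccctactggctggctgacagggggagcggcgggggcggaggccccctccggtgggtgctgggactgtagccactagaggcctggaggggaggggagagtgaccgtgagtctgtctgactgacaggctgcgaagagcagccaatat

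Dll1 held 3 matches, beginning 229, 155 and 132 bases before the start. Hes6 held 3, beginning 220, 171 and 164 bases before it, and Gfi1 held 1, at 42 bases. Dll4, Atoh1, Notch1 and Notch2 held 0, and Jag1 held 1. The form CAGCTG, a subset of CANNTG, occurred once each in Dll1, Hes6 and Jag1. Over all 32851 promoters of the same length, 66.2% held CANNTG and 13% held CAGCTG. The Rbpj core TGGGAA, searched on both strands, was in 21.6% of them and in 0 of the 8 members. These matches describe letters in a window and no binding was measured.

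Values are counts of unique molecular identifiers (UMIs, each standing for 1 captured RNA molecule) summed over cells and given per 1000000 UMIs (CPM). Filters of 500 genes or more and 20% mitochondrial UMIs or less, followed by doublet removal, left 4050 E12.5, 4409 E17.5, 3597 adult and 3031 irradiated cells, from between 38648331 and 90674425 UMIs per library. The median depth of kept cells ranged from 3606 UMIs in the adult to 18081.5 at E12.5. Any pair of libraries shared between 6 and 12 barcodes, at most 0.230% of the smaller. Clusters were named from marker lists, with the member genes left out of clustering, and a name such as goblet-like rests on at least 3 markers. The labelled cell type was intestinal epithelium, yet some kept cells of both embryonic libraries fell into clusters with pancreatic, islet, mesenchymal or muscle markers. Leaving these out, 3478 epithelial cells remained at E17.5 and 3873 at E12.5, and all kept cells of the adult libraries counted as epithelial. Epithelial cells of no named lineage are called unassigned. They were 3857 cells at E12.5, 1044 at E17.5 in clusters led by Olfm4, Spp1 or Neurog3, 125 cycling cells in the adult, and 227 mostly shallow cells after irradiation. The sort for Bmi1 expression can set how many cells of a class are present. Levels are compared within a gene and not between genes. Intervals are exact 95% limits, which describe counting error only. Each group was a single library, with no replicate check and no test, so a difference between libraries compares those libraries. Whether fewer cells of a type or less RNA per cell set a level over all epithelial cells cannot be told apart without the values by cell type.

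Over all epithelial cells, Notch2 and Hes1 were highest at E12.5, and the ligands, Mfng and the secretory factors were lowest at E12.5. Hes1 was 372 CPM in E12.5, 192 in E17.5, 40.5 in adult and 19.1 in irradiated cells. Notch2 followed the same order, at 16.6, 8.79, 2.22 and 1.37 CPM. Dll4 ran the other way, at 0.645, 9.63, 21.2 and 32.6 CPM, and the intervals of neighbouring libraries did not overlap for any of these 3 genes except Notch2 in the adult libraries (1.71 to 2.82 and 1.02 to 1.79 CPM). Thinned to 2000 UMIs per cell, Dll4 did not separate E17.5 from the adult. A Dll4 UMI was seen in 4.69% of 3326 and 4.71% of 2950 cells (13.5% and 12.1% unthinned), beside 0.211% at E12.5 and 7.69% after irradiation. Other depths gave another picture. At 1000 UMIs the E17.5 and adult shares were 1.80% (1.39 to 2.31) and 2.96% (2.42 to 3.57), with no overlap. At 4000 UMIs they were 7.12% (6.26 to 8.06) and 8.41% (7.11 to 9.86), which overlapped. Notch1 stayed within a narrower range, at 14.6, 17.9, 14.5 and 9.52 CPM. Hes6 was detected throughout, at 58.3, 101, 68.1 and 91.9 CPM.

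**Figure D1:**
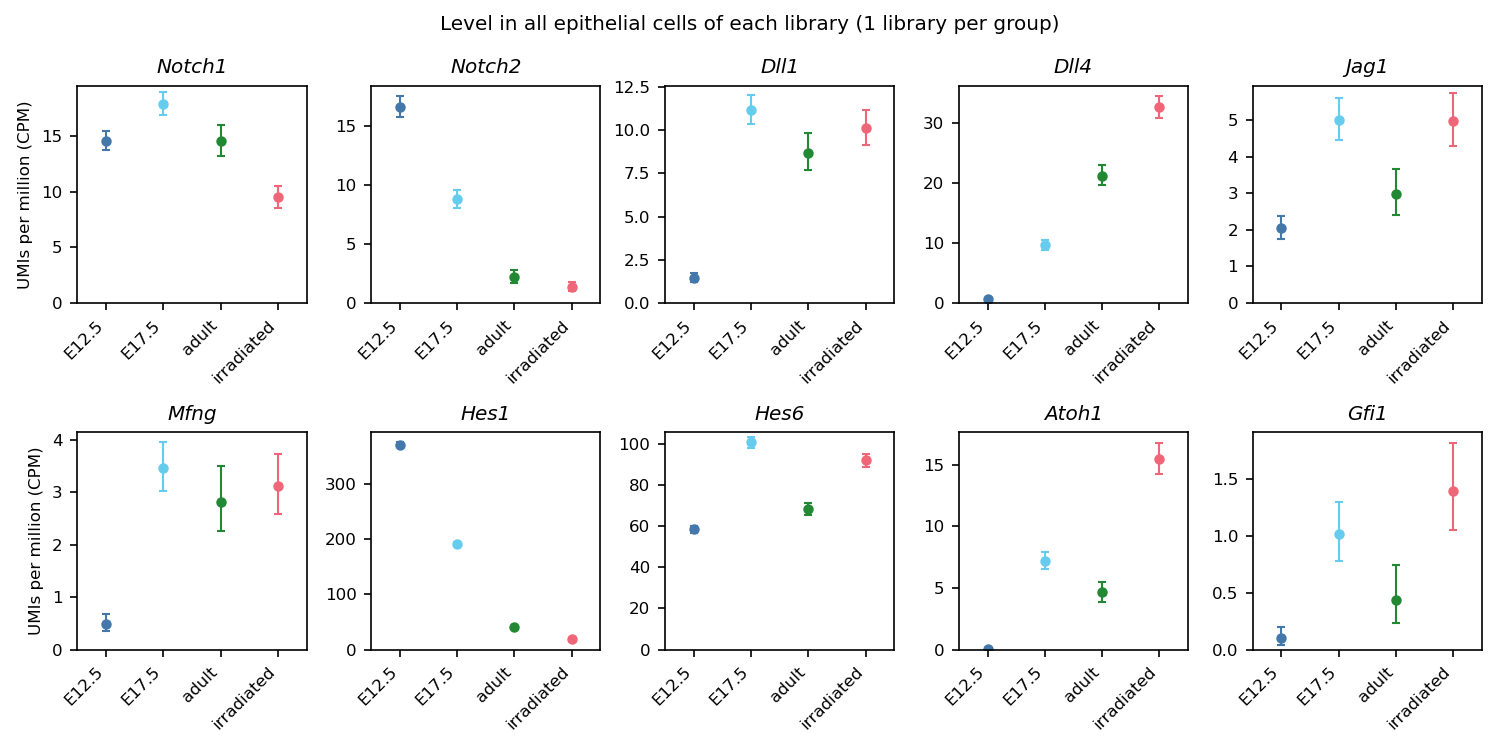
Level of each gene in all epithelial cells of each library, in counts per 1000000 UMIs (CPM, linear axes from 0). Points are 1 library each and bars are exact 95% Poisson limits; Hes1 descends from 372 to 19.1 CPM while Dll4 ascends from 0.645 to 32.6 CPM.

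From E12.5 to E17.5, 4 of the 10 genes were at least 2-fold higher and 0 were 2-fold lower, with 1 CPM added to both levels before the ratio was taken. Of all 17062 genes tested, 27.3% passed that fold in either direction, 13.1% higher and 14.2% lower. The share of members that passed was above that of all genes, with every one of them higher, and the difference was not tested. The 4 were Dll1 (log2 2.30), Dll4 (2.69), Mfng (1.58) and Atoh1 (3.00). Atoh1 rested on 2 UMIs at E12.5 and 448 at E17.5, a count ratio of 285 with an interval of 78.5 to 2361. Gfi1 rested on 8 and 63 UMIs, a ratio of 10.0 (4.79 to 24.2), but at levels of 0.101 and 1.01 CPM its scaled difference was 0.87. Hes1 and Notch2 were lower at E17.5 by less than 2-fold (log2 -0.95 and -0.85). With CPM averaged over cells both passed 2-fold, giving 5 genes higher and 2 lower, and with 10 CPM added 0 genes passed. Within unassigned cells alone, 5 genes were past 2-fold upwards, Dll1, Dll4, Jag1, Mfng and Atoh1, against 24.7% of all genes (9.60% higher), and Hes1 was 373 and 286 CPM, less than 2-fold apart.

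From E17.5 to the adult, Dll4 was 2-fold higher (log2 1.06) and Notch2 and Hes1 were 2-fold lower (-1.61 and -2.22), 3 of 10 genes beside 24.5% of all genes (12.3% in either direction alone). The Dll4 call was lost with cells thinned, with 10 CPM added and with CPM averaged over cells, and the thinned cells gave 0 genes higher and 5 lower. The mix of cells differed between these libraries, and tuft-like cells, 973 of 3597 in the adult, had no E17.5 class. Outside the enteroendocrine-like class, Dll4 was 2.22 CPM at E17.5 and 4.64 in the adult, a difference of 0.81 on the log2 scale, and Hes1 was 231 and 65.7 CPM. In enteroendocrine-like cells themselves, Dll4 stood at 43.6 and 43.2 CPM, a count ratio of 0.992 (0.876 to 1.12). In unassigned cells 2 of 10 genes were higher in the adult (Dll4 and Atoh1) and 2 lower (Mfng and Hes1), beside 15.8% of all genes (6.29% higher and 9.51% lower), but Atoh1 was lower with every barcode kept and at a finer clustering, and Dll4 when thinned. In enteroendocrine-like cells 1 of 9 tested genes passed 2-fold, Notch2 (log2 -1.14, on 23 and 5 UMIs), beside 20.9% of all genes (11.0% higher and 9.9% lower).

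The receptors were compared by cell type first. Notch1 encodes the receptor that acts most widely in the adult crypt. Among epithelial classes of 50 or more cells its level was highest in unassigned cells. It was 14.5 CPM there in E12.5, 28.3 in E17.5, 40.2 in adult and 34.8 in irradiated cells. The irradiated unassigned cells were a mixture. Their clusters of 50 or more cells held 5.58 CPM or less, so the class value was carried by its few cycling cells. At E12.5 no other epithelial class was that large, and the 16 enteroendocrine-like cells held 5 UMIs. Enteroendocrine-like cells held 7.37, 7.44 and 8.12 CPM in the E17.5, adult and irradiated libraries, and these 3 intervals overlapped. Within that class, the Sst-led clusters described below reached 42.0 CPM in the adult and 36.6 after irradiation. Tuft-like cells stood at 7.38 CPM in the adult and 14.1 after irradiation, on 34 and 22 UMIs. Outside the gut lineages, Notch1 was 92.9 CPM in pancreatic progenitor-like cells at E12.5 and 43.2 in pancreatic acinar-like cells at E17.5, above the 28.3 CPM of unassigned cells of that library.

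Notch2, the other receptor of the crypt, was not detected in tuft-like cells, with 0 UMIs in 973 adult and 0 in 291 irradiated cells. A count of 3 would have given 0.651 and 1.92 CPM there. In enteroendocrine-like cells it was 2.07, 0.392 and 0.533 CPM in the E17.5, adult and irradiated libraries, and in unassigned cells 14.4, 7.28 and 6.32 CPM. At E17.5 the unassigned value joined unlike clusters: 9.15 CPM in the main Olfm4-led cluster and 54.0 and 71.7 CPM in small clusters led by Akr1b7, Tff2 and Spp1 (142 cells) and by Spp1, Fmo2 and Bicc1 (91 cells). Notch2 was also high outside the epithelium, at 64.5 CPM in mesenchymal-like and 41.5 CPM in smooth muscle-like cells, whereas islet-like cells held 0 UMIs.

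Among the ligands, Dll4 was highest in the enteroendocrine-like class at E17.5 and in the adult, and after irradiation goblet-like cells were level with it. The 16 enteroendocrine-like cells at E12.5 held 0 UMIs. Dll4 is a Delta-like ligand shared by crypt secretory cells and blood vessels. Its level in the enteroendocrine-like class was 43.6 CPM (39.8 to 47.7) at E17.5, 43.2 (39.7 to 47.0) in adult cells and 47.8 (45.03 to 50.8) after irradiation, on 485, 552 and 1078 UMIs. E17.5 enterocyte-like cells held 0.537 CPM, adult Paneth-like cells 2.29 and adult tuft-like cells 2.82. Thinned to 2000 UMIs per cell, 9.87% of 1428 enteroendocrine-like cells at E17.5 had a Dll4 UMI (25.6% of 1466 unthinned), against 0 of 722 enterocyte-like cells (1.00% of 798 unthinned), with median depths of 7335.5 and 26397 UMIs before thinning. In the adult the thinned shares were 7.49% of 1735 enteroendocrine-like and 0.667% of 900 tuft-like cells (16.97% and 1.34% unthinned), at median depths of 3191 and 4111 UMIs. After irradiation they were 8.83% of 2016 and 0.837% of 239 (28.3% and 2.06% unthinned), so Dll4 RNA was found in a minority of the class in each library at this depth. Goblet-like cells differed between libraries, at 7.72 CPM at E17.5 (41 UMIs) and 46.4 after irradiation (92 UMIs). The adult library held no goblet-like class, so irradiated goblet-like cells had no adult partner.

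Dll1, the other Delta-like ligand of the crypt, had a different distribution. Its level was 38.0 CPM in goblet-like cells at E17.5 and 27.8 after irradiation. Tuft-like cells followed, at 14.98 CPM in the adult (11.7 to 19.0) and 17.3 after irradiation (11.4 to 25.2). Enteroendocrine-like cells held 11.1, 7.68 and 10.8 CPM, close to the unassigned cells at 8.25, 9.97 and 7.67 CPM. Between tuft-like and enteroendocrine-like cells 5 of 8 tested genes were lower and 0 higher in the adult, beside 43.7% of all genes (10.4% higher and 33.4% lower), and 5 of 9 lower and 0 higher after irradiation, beside 38.1% (9.62% and 28.5%). Among the latter, Atoh1 rests on 0 UMIs in 291 tuft-like cells, where 3 UMIs would have reached the enteroendocrine-like level. Within either adult library the tuft-like and enteroendocrine-like values of Dll1 lay less than 2-fold apart, while Dll4 was lower in tuft-like cells by 15.3-fold (8.88 to 28.9) in the adult and 12.5-fold (5.70 to 34.0) after irradiation.

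Jag1, a Serrate-type ligand, was highest in supporting tissue and uneven within the E17.5 epithelium. It was 68.5 CPM in E17.5 mesenchymal-like cells, 36.5 in E12.5 pancreatic progenitor-like cells and 18.4 in smooth muscle-like cells, against 2.06 and 6.95 CPM in unassigned cells at E12.5 and E17.5. The E17.5 value joined 4.72 CPM in the main Olfm4-led cluster with 23.5 and 28.5 CPM in the same small Spp1-carrying clusters that were high in Notch2, on 34 and 31 UMIs. After irradiation Jag1 was 18.1 CPM in unassigned and 17.2 in enterocyte-like cells, where the adult library gave 4.91 and 4.16 CPM. The irradiated unassigned cells were a mixture, and 32 of their 40 Jag1 UMIs came from 28 cycling cells.

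Mfng was found mainly in enteroendocrine-like cells in both adult libraries, with 81 of 84 UMIs in the adult and 113 of 121 after irradiation. In the embryonic libraries unassigned cells held 22 of 39 UMIs at E12.5 and 86 of 215 at E17.5, beside 121 in the E17.5 enteroendocrine-like class. Most of those 86 UMIs lay in the small Neurog3-led clusters described below. The level of Mfng was 10.9, 6.34 and 5.02 CPM in enteroendocrine-like cells in the E17.5, adult and irradiated libraries. In E17.5 islet-like cells it was 30.4 CPM (22.2 to 40.7). Tuft-like cells held 0 UMIs in both adult libraries, which put the adult enteroendocrine-like level at least 9.74-fold higher than 3 UMIs in the tuft-like class. Enterocyte-like cells held 3 UMIs at E17.5, 0 in the adult and 2 after irradiation. At E12.5, 17 of the 39 Mfng UMIs of the epithelium lay in 16 enteroendocrine-like cells, a level of 69.1 CPM.

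Hes1, the classical Notch target, was highest in unassigned cells at every stage: 373, 286, 131 and 116 CPM from E12.5 to the irradiated adult. Enterocyte-like cells held 170, 33.8 and 75.2 CPM in the E17.5, adult and irradiated libraries. Enteroendocrine-like cells held 13.8, 6.81 and 4.75 CPM, and tuft-like cells 7.60 and 4.48. Thinned to 2000 UMIs per cell, a Hes1 UMI was seen in 48.9% of unassigned cells in the E12.5 library and 40.5% in the E17.5 library, and in 22.2% of 117 adult and 12.2% of 74 irradiated ones. Before thinning these were 87.8%, 85.4%, 88.0% and 18.1%, and 548, 37, 8 and 153 cells were too shallow to be thinned. Thinned shares in enteroendocrine-like cells were 2.59%, 1.61% and 0.992% in the E17.5, adult and irradiated libraries (8.80%, 3.65% and 3.92% unthinned, at median depths of 7335.5, 3191 and 9331 UMIs). Of all Hes1 UMIs in the adult epithelium, 68.8% came from the unassigned cells, which were 3.48% of the cells at a median depth of 47005 UMIs. The highest single value, 833 CPM, was in the 142 cells led by Akr1b7, Tff2 and Spp1 at E17.5.

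Hes6 was detected in every named epithelial class. It was 127, 94.8 and 118 CPM in enteroendocrine-like cells, 118 and 114 in goblet-like cells and 35.4 and 28.9 in Paneth-like cells. Tuft-like cells were the lowest class, at 24.3 CPM in both adult libraries, 3.90-fold (3.21 to 4.77) and 4.85-fold (3.52 to 6.86) under the enteroendocrine-like cells.

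Atoh1, the master factor of the secretory lineages, was concentrated in goblet-like and Paneth-like cells. Goblet-like cells held 65.0 CPM at E17.5 and 124 after irradiation, and Paneth-like cells 15.3 in the adult and 42.4 after irradiation. Enteroendocrine-like cells, also a secretory lineage, held 3.60, 1.49 and 1.82 CPM. Tuft-like cells held 0 UMIs in 973 and 291 cells, which allows shares of up to 0.308% and 1.03% of cells with a UMI. Goblet-like cells gave 345 of the 448 Atoh1 UMIs at E17.5 (77.0%). In the adult 60 of 138 came from Paneth-like and 59 from unassigned cells. Thinned to 2000 UMIs, 11.2% of 169 goblet-like and 0 of 722 enterocyte-like cells at E17.5 had an Atoh1 UMI (74.1% and 0.627% unthinned), at median depths of 32009.5 and 26397. After irradiation a thinned Atoh1 UMI was seen in 15.6% of 64 goblet-like and 7.69% of 91 Paneth-like cells, and in the adult in 1.38% of 145 Paneth-like cells (60.8%, 61.1% and 14.3% unthinned). Against E17.5 enterocyte-like cells, E17.5 goblet-like cells were 2-fold higher for 4 of 9 tested genes, Dll1, Dll4, Atoh1 and Gfi1, and lower for 0, beside 11.3% of all genes in either direction and 6.37% higher. The E17.5 goblet-like cluster was led by Defa24 and Defa17, which are Paneth markers, beside Spink4 and the goblet markers Clca1, Fcgbp and Muc2.

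Gfi1 encodes a zinc-finger repressor that follows Atoh1. It was 6.97 CPM in goblet-like cells at E17.5 and 15.1 after irradiation, and 2.04 and 3.17 in Paneth-like cells. Enteroendocrine-like cells held 0, 0 and 1 Gfi1 UMIs, although they were the largest class in 3 libraries. Among other epithelial cells at E17.5 there were 63 UMIs, at least 4.58-fold higher than 3 UMIs in the enteroendocrine-like class. E17.5 pancreatic acinar-like cells held 15.5 CPM of Gfi1, on 108 UMIs, together with 1 UMI of Atoh1.

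**Figure D2:**
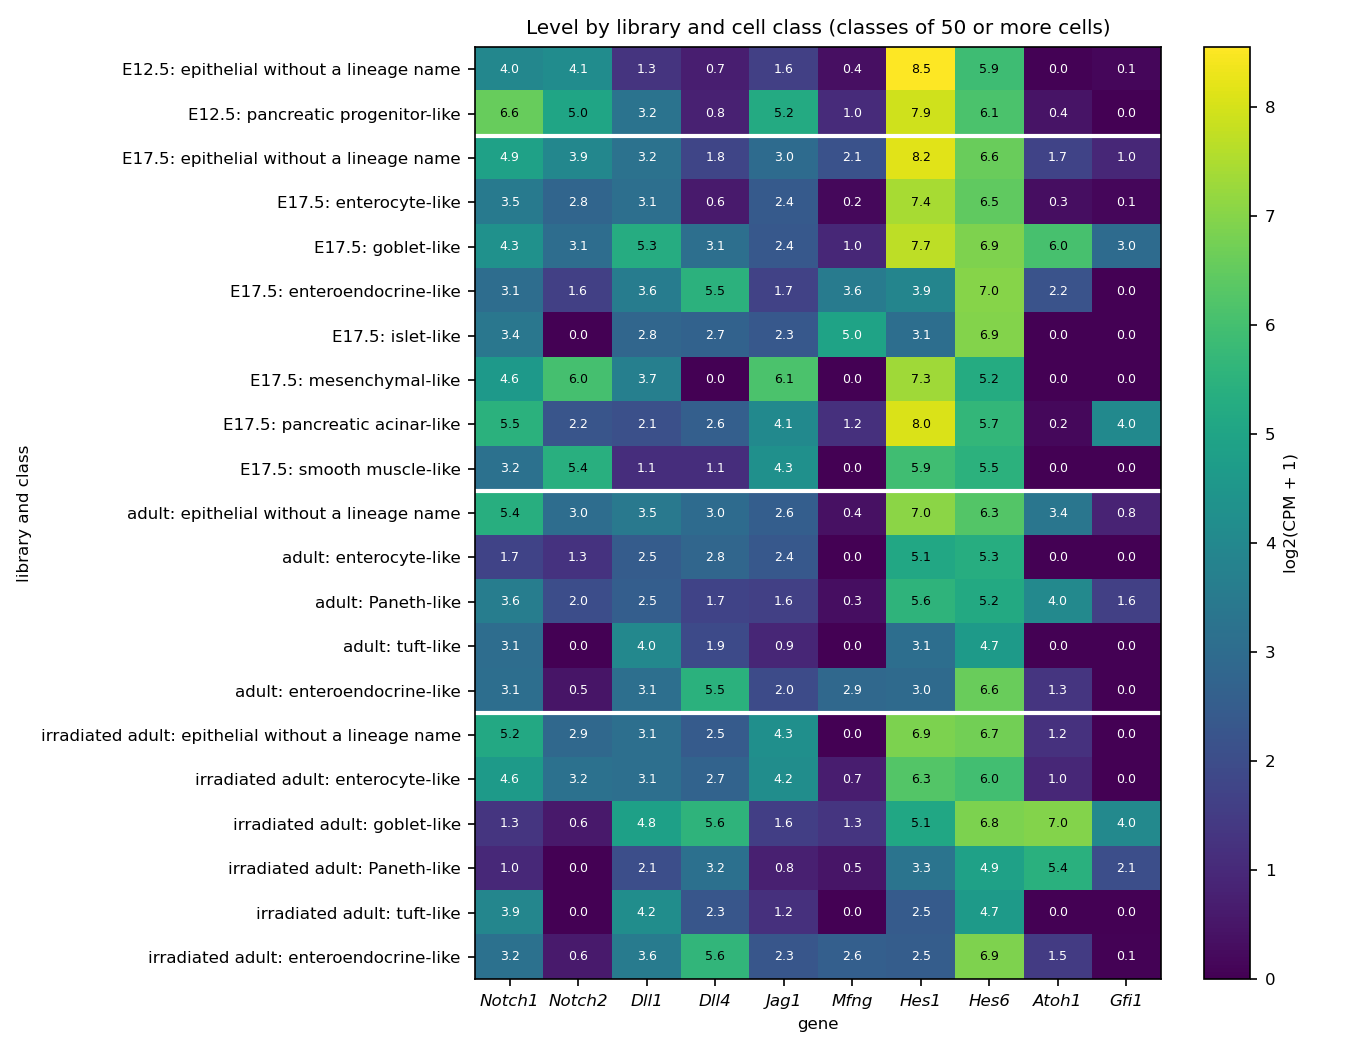
Level of each gene by library and cell class of 50 or more cells, as log2(CPM + 1). Colour and printed numbers give the same value, and Dll4 is bright in the enteroendocrine-like rows, Atoh1 in the goblet-like and Paneth-like rows, and Hes1 in the unassigned rows (named there epithelial without a lineage name).

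Set against all other epithelial cells of the same library, enteroendocrine-like cells showed high Dll4 and Mfng and low Hes1 and Notch2 in all 3 libraries. These cells were 1466, 2221 and 2271 in number. At E17.5, 2 genes were 2-fold higher and 5 lower, and 37.2% of all genes passed that fold (22.2% higher and 15% lower). In the adult 2 were higher and 4 lower, beside 40.4% (28.0% and 12.4%), and after irradiation 3 were higher and 4 lower, beside 43.5% (37.0% and 6.55%). Members were lower more often than all genes were, and higher about as often or less often, and the difference was not tested. Dll4 was 19.7-fold (16.004 to 24.4), 9.31-fold (7.34 to 11.9) and 4.22-fold (3.60 to 4.96) higher in the E17.5, adult and irradiated libraries. Its level in the other epithelial cells was 2.22, 4.64 and 11.3 CPM. Hes1 was 16.7-fold (14.2 to 19.7), 9.65-fold (7.75 to 12.1) and 8.22-fold (6.68 to 10.2) lower. On UMI totals Dll1 was not distinguishable between the sides. Its count ratios were 1.00 (0.817 to 1.22), 0.811 (0.624 to 1.05) and 1.20 (0.970 to 1.48), with intervals that all include 1. The median over all genes was 0.14, 0.42 and 0.72 on the log2 scale, so most genes were higher relative to the total in enteroendocrine-like cells. The ratios of Dll4, Hes1 and Dll1 were not set against that median.

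Clusters within the enteroendocrine-like class differed. They were grouped by leading genes after their values had been seen, so the grouping is a description. Clusters with Tph1, the gene of serotonin synthesis, among their top 10 genes held 312, 577 and 922 cells. Dll4 in them was 65.4, 88.6 and 71.9 CPM in the E17.5, adult and irradiated libraries, against 39.3, 23.8 and 30.9 CPM in the remaining enteroendocrine-like cells. Mfng was 19.1 against 0.895 CPM in the adult, a ratio of 21.3 (10.3 to 51.3), and 9.88 against 1.59 CPM after irradiation, a ratio of 6.22 (3.84 to 10.5). At E17.5 it was 14.8 against 10.1 CPM, and the interval of that ratio, 0.919 to 2.27, included 1. Atoh1 at E17.5 was 15.9 CPM in these clusters and 1.18 in the rest, a ratio of 13.5 (6.53 to 29.9). Those 312 cells thus held 29 of the 40 Atoh1 UMIs of the class. The 3 irradiated clusters with Tph1 were uneven. Mfng peaked at 15.3 CPM in a single cluster of them. The others lay under the Sst-led cluster described next, at 5.23 CPM, and under a further enteroendocrine-like cluster without Tph1 among its top genes. For Dll4, too, an enteroendocrine-like cluster outside this group lay above the lowest cluster with Tph1.

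Clusters led by Sst, the somatostatin gene, held 155, 126 and 158 cells. Notch1 was 42.0 CPM in the adult ones and 36.6 after irradiation, against 4.43 and 5.77 CPM in the other enteroendocrine-like cells, ratios of 9.48 (6.18 to 14.5) and 6.35 (4.61 to 8.69). At E17.5 the corresponding levels were 9.76 and 7.13 CPM, with a ratio interval of 0.629 to 2.66. Jag1 was higher in Sst-led clusters in all 3 libraries, by 4.64-fold (1.73 to 11.3), 3.69-fold (1.53 to 8.04) and 4.88-fold (2.94 to 7.88), on 8, 9 and 25 UMIs there. At E17.5 the lower of the 2 Sst-led clusters lay under some other enteroendocrine-like clusters for Jag1. Dll4 was lower in the Sst-led clusters, at 16.6, 10.7 and 9.88 CPM. Hes1 in the same clusters was 11.7, 8.79 and 9.88 CPM, against 14.1, 6.64 and 4.32 CPM in the other enteroendocrine-like cells. The ratio interval excluded 1 after irradiation, at 2.28 (1.28 to 3.87), and included it at E17.5 and in the adult. These Hes1 levels were all under those of unassigned cells.

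**Figure D3:**
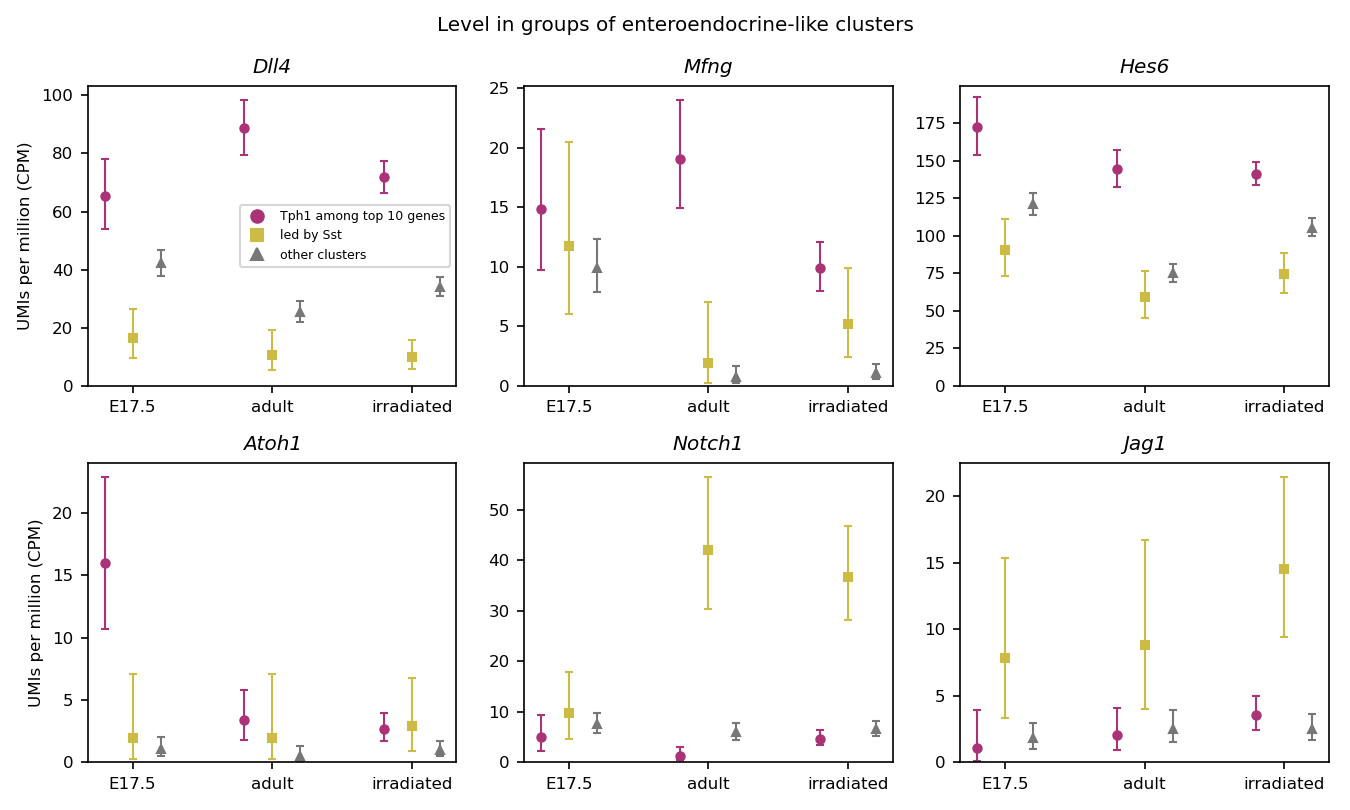
Level in groups of enteroendocrine-like clusters, in counts per 1000000 UMIs (CPM, linear axes from 0), by library. Points are summed cells of 1 library and bars exact 95% Poisson limits; adult Notch1 is 42.0 CPM in Sst-led clusters, and adult Dll4 is 88.6 CPM in clusters with Tph1 among their top genes.

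Cells with at least 1 Atoh1 UMI were compared with cells that had none, Atoh1 itself left out. Since the split needs a UMI, it favours deep cells: medians were 29441 and 11026 UMIs at E17.5 and 39544.5 and 3542 in the adult. E12.5 had 2 such cells of 3873, under the minimum of 20 for a comparison. At E17.5, 207 of 3478 cells were positive, and 126 of these were goblet-like. Dll1 was 36.7 CPM in positive and 8.56 in negative cells, 4.28-fold higher (3.62 to 5.05), and Gfi1 was 7.02 and 0.408 CPM, 17.2-fold higher (10.1 to 30.1). Mfng was lower, at 0.877 and 3.72 CPM. These 3 of 9 genes stood beside 7.54% of all genes past 2-fold (1.03% higher and 6.5% lower). Hes1 was 214 CPM in positive and 190 in negative cells, a ratio of 1.13 (1.06 to 1.20). With cells thinned to 2000 UMIs before the split, 6 genes passed in place of 3.

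The same split within unassigned cells at E17.5 left 44 positive cells. Dll1 was 33.8 against 6.76 CPM there, Dll4 10.1 against 1.97 and Gfi1 8.63 against 0.504. Mfng had 0 UMIs in positive and 86 in negative cells. These 4 of 9 genes compare with 8.06% of all genes (1.02% higher and 7.04% lower). Hes1 did not separate the groups, at 281 and 287 CPM, with a ratio interval of 0.884 to 1.09.

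In the adult, 66 cells were Atoh1-positive, and 1 of 9 genes was 2-fold higher (Gfi1, on 7 and 6 UMIs) and 1 lower (Dll4, log2 -1.14), beside 40.2% of all genes (1.09% higher and 39.1% lower). With trimmed-mean or median-of-ratios scaling the Dll4 call was lost, and 5 genes, Notch1, Notch2, Dll1, Hes1 and Gfi1, were higher and 0 lower. After irradiation 150 cells were positive. Gfi1 was 5.35 against 0.388 CPM, 13.8-fold higher (7.12 to 28.7), while Notch1, Notch2, Dll4, Jag1 and Mfng were lower. That is 6 of 9 genes beside 67.8% of all genes (1.23% higher and 66.6% lower), and the median over all genes was -1.30 on the log2 scale, so most genes were low in these cells relative to their total. With those scalings all 5 lower calls were lost, Dll4 turned from -1.22 to 0.34 and 0.37, and 3 genes, Dll1, Hes1 and Gfi1, were higher. The lower calls therefore depend on the scaling. Gfi1 was higher past 2-fold in each of the 3 libraries with a comparison, under these scalings too in the adult libraries.

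Neurog3 is switched on briefly as a cell enters the enteroendocrine path. At E17.5, 154 epithelial cells had a Neurog3 UMI, 91 of them unassigned and 50 enteroendocrine-like, at a median depth of 8538.5 UMIs against 11789 in the rest. Mfng was 41.2 CPM in them and 1.91 in the others, 21.6-fold higher (16.3 to 28.5). Dll1 was 28.6 and 10.4 CPM, and Hes6 198 and 96.5. These 3 of 10 genes, all higher, compare with 8.49% of all genes (4.12% higher). Atoh1 was 7.35 and 7.21 CPM, a ratio interval of 0.599 to 1.63, and Hes1 205 and 192 CPM, an interval of 0.973 to 1.17. The cluster led by Neurog3 and Btbd17, with 37 cells, held 187 CPM of Mfng, 565 of Hes6, 35.8 of Dll1, 31.8 of Dll4 and 47.8 of Hes1. A second Neurog3-led cluster of 61 cells, which also carried Olfm4, held 14.8 CPM of Mfng, 113 of Hes6 and 184 of Hes1. The former had more Mfng and Hes6 and less Hes1 than the latter, on 47 and 23 UMIs of Mfng.

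Between the irradiated and the untreated adult library, Atoh1 was 3.34-fold higher (2.77 to 4.05) and Hes1 2.12-fold lower (1.93 to 2.33) over all epithelial cells. These 2 of 10 genes compare with 7.09% of all genes past 2-fold. Of all genes, 2.49% were higher and 4.61% lower. Hes1 missed the 2-fold line under 7 other settings and kept its direction in them, while among the settings run Atoh1 missed it only with 10 CPM added to each level. Of the 600 irradiated Atoh1 UMIs, 308 came from 95 Paneth-like cells and 245 from 79 goblet-like cells, and the adult library had no goblet-like class. Goblet marker genes summed to 4808 CPM in the adult and 22512 CPM in the irradiated epithelium, and all 9 were above 10 CPM in both. Their part in the Atoh1 difference was not tested. Beside Hes1, cycling markers summed to 482 and 120 CPM and crypt base stem cell markers to 888 and 177 CPM, with all 10 of each list detected in both libraries, and the unassigned cells, where Hes1 was highest, gave 21.2% and 5.72% of all UMIs. Their part in the Hes1 difference was not tested either. In enteroendocrine-like cells Atoh1 was 1.49 and 1.82 CPM, a ratio of 1.22 (0.694 to 2.23), and 0 of 9 genes passed 2-fold, beside 5.02% of all genes (2.30% higher and 2.72% lower). In tuft-like cells 0 of 5 passed, beside 8.69% (5.76% higher and 2.93% lower).

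Paneth-like cells gave Atoh1 levels of 15.3 CPM in the adult and 42.4 after irradiation, 2.78-fold higher (2.10 to 3.72), and Dll4 levels of 2.29 and 7.99 CPM. Hes1 was 46.1 and 8.68 CPM, 5.31-fold lower (3.97 to 7.20), Notch1 was 11.2 and 0.964, and Notch2 had 12 and 0 UMIs, at least 7.40-fold higher in the adult than 3 UMIs in the irradiated class. These 5 of 9 genes compare with 22.7% of all genes (3.29% higher and 19.4% lower). The depth of these cells differed widely, with medians of 2944 UMIs over 217 adult cells and 98803 over 95 irradiated cells. Of the 2 adult clusters, the deeper one (77 cells, median 28751 UMIs) held 40.3 CPM of Hes1 and the shallower one (140 cells) 109 CPM. Neither reached the median depth of the irradiated cells, which held 8.68 CPM, and the part of depth was not tested.

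Enterocyte-like cells were few, 61 in the adult and 68 after irradiation. Notch1 was 2.31 and 24.0 CPM, Notch2 1.39 and 8.11, Jag1 4.16 and 17.2, and Hes1 33.8 and 75.2. These 4 of 7 genes, all higher after irradiation, compare with 32.0% of all genes (21.3% higher and 10.7% lower). With every deposited barcode kept, Notch1 (log2 -2.53), Jag1 (-0.80) and Hes1 (-0.16) lay lower after irradiation instead. Ly6d and Lgals3 were among the leading genes of the irradiated cells only. Outside the enteroendocrine-like class as a whole, Atoh1 (6.996 and 34.5 CPM), Gfi1 (0.764 and 3.27) and Dll4 (4.64 and 11.3) were 2-fold higher after irradiation, 3 of 10 genes beside 17.1% (5.09% higher).

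**Figure D4:**
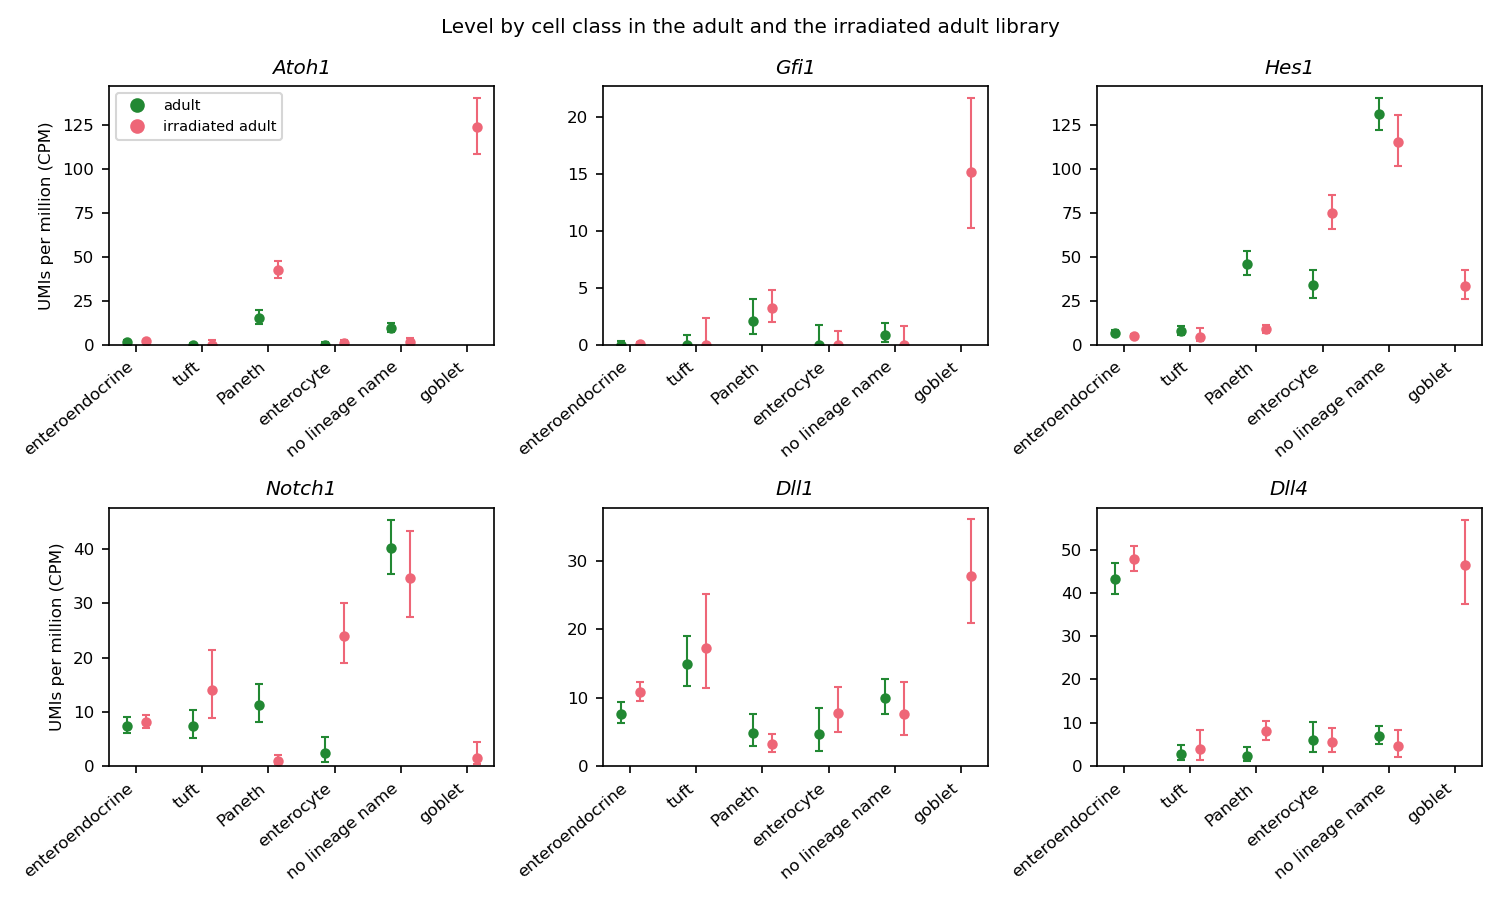
Level of 6 genes by cell class in the adult and the irradiated adult library, in counts per 1000000 UMIs (CPM, linear axes from 0), with exact 95% Poisson limits and 1 library per group. The adult library has no goblet-like point; Hes1 is lower after irradiation in Paneth-like cells (46.1 and 8.68 CPM) and higher in enterocyte-like cells (33.8 and 75.2 CPM).

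A further list of 50 pathway and fate genes was described beside the members. From E12.5 to E17.5, 8 of 47 tested genes were 2-fold higher and 8 lower, beside 13.1% and 14.2% of all genes, a share of the list close to that of all genes. The other ligands Dll3 (0.291 and 8.37 CPM) and Jag2 (3.17 and 8.58), the fringe Lfng and the Notch feedback gene Nrarp (1.05 and 24.1) were among the higher, and the receptor Notch3 (21.5 and 0.724), Rbpj (44.6 and 18.8) and the progenitor factor Sox9 among the lower. The median over the list was -0.11 on the log2 scale, and -0.13 over all genes. After irradiation 2 of 48 were higher, Spdef (5.91 and 16.98 CPM) and Foxa3 (28.5 and 60.1), and 0 lower, beside 2.49% and 4.61% of all genes. The medians were 0.16 for the list and -0.04 for all genes. At E17.5 Spdef and Foxa3 were 2-fold higher in goblet-like than in enterocyte-like cells. Foxa3 was also 2-fold higher there in enteroendocrine-like than in other epithelial cells.

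In enteroendocrine-like cells 13 of 47, 16 of 45 and 18 of 47 genes of that list were 2-fold higher than in other epithelial cells in the E17.5, adult and irradiated libraries, and 3, 4 and 5 were lower. Of all genes 22.2%, 28.0% and 37.0% were higher, so the higher counts were near the general share. Of all genes 15%, 12.4% and 6.55% were lower. The lower counts were thus below the general share at E17.5 and in the adult and above it after irradiation. The difference was not tested. Jag2 was higher in each library, at 29.0, 39.5 and 36.3 CPM against 4.12, 2.70 and 8.57. Nrarp at E17.5 was 3.06 CPM in enteroendocrine-like cells and 28.7 in the others, on the same side as Hes1. In Atoh1-positive cells at E17.5, 7 of 47 were higher, among them Spdef (82.1 against 4.27 CPM), Bhlha15, Dll3 and Lfng, and 4 were lower, among them the endocrine factors Neurog3 (4.21 against 19.8) and Insm1 (19.3 against 80.7). Of all genes 1.03% were higher and 6.5% lower there, so the lower count was near the general share.

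Over 21 combinations of library and cell class with 50 or more cells, the genes whose levels followed each member most closely were listed from 7956 candidates. These points share 4 libraries and overlap in cell types, so the Pearson coefficients are descriptions. Atoh1 was closest to Rep15 (0.971) and Galnt5 (0.966), Gfi1 to Spdef (0.877) and Klk1 (0.871), Hes1 to Ube2c (0.948), Dctpp1 (0.945) and Tyms (0.937), and Mfng to Tubb3 (0.972). Dll4 was closest to Slc25a35 (0.931), Notch2 to Sash1 (0.958), Jag1 to Tspan4 (0.865), Hes6 to Gars (0.855), Notch1 to Tiam1 (0.826) and Dll1 to Rassf6 (0.781). Dll1 thus had the lowest best coefficient of the 10.

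On the GRCm38 build the members lie at 2:26457903-26516663 (Notch1), 3:98013527-98150361 (Notch2), 17:15367354-15376872 (Dll1), 2:119325784-119335962 (Dll4), 2:137081456-137116644 (Jag1), 15:78755882-78773475 (Mfng), 16:30064384-30067796 (Hes1), 1:91411483-91414038 (Hes6), 6:64729125-64731245 (Atoh1) and 5:107716657-107726036 (Gfi1). Notch2 overlaps the predicted genes Gm42819 and Gm42820 on its own strand, and Notch1 the microRNA gene Mir6996, so reads there could be split between them. Notch1, Dll1, Dll4 and Gfi1 also overlap genes on the opposite strand.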

How the data were processed

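The authors deposited a filtered matrix of UMI counts for each of 4 droplet libraries. Counts came from Cell Ranger 3.1.0 with mm10, per the submitters' processing notes. The labels' protocols name the 3′ v3 chemistry. Whether introns or strand were used in counting is not given in the sources used here.

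Barcodes needed 500 genes or more and 20% mitochondrial UMIs or less, and Scrublet scores removed 0.8% of barcodes per 1000 as doublets. Each library was clustered with scanpy 1.11.5 (2000 variable genes, 30 components, 20 neighbours, Leiden resolution 1), without member and pathway genes, and clusters were named from 19 marker lists with thresholds revised after clusters were seen. Counts were summed per class (CPM). With 1 library per group no test was run: a call needs a 2-fold difference on log2(CPM + 1) and 10 UMIs over both sides, with at least 20 cells a side, a minimum set after counts were seen, and count ratios carry an exact binomial 95% interval. In all 24 comparisons were made, of which 11 were treated as main ones. All 10 genes were named by rule, and 50 pathway genes were a list, of which those past 2-fold with 50 UMIs could be named. The members and lists were chosen with earlier results of these data known. Simulated counts with 200 changed genes were drawn in 3 comparisons (13512, 12908 and 12440 genes). The procedure gave the right direction for 100% of the changed genes in each and called 0% of unchanged genes. Both sides were Poisson draws from a pooled profile, for genes well above the 10 UMIs of a call. They held no variation between libraries, animals or cell mixes, so the 0% is not an error rate for the calls reported here.

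Other versions were leidenalg 0.10.2, pandas 2.3.3, scipy 1.17.1, numpy 2.4.6, Python 3.11.15, R 4.3.3, edgeR 4.0.16 and DESeq2 1.42.0, the last 2 for scaling factors only. Identifiers matched GENCODE M21 on GRCm38 for 30934 of 31054 features. Alternatives covered cell filters, doublets, resolution, scaling, added CPM, count minimum, thinning and means over cells.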

Additional observations from a re-analysis of the deposited data

Results flagged for a closer look

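Between the irradiated and the untreated adult library, 3 genes differed in opposite directions in different cell classes, each value resting on 1 library a group. The difference between classes was not tested. Notch1 was -2.64 on the log2 scale in Paneth-like cells, on 7 irradiated and 44 adult UMIs, and 2.92 in enterocyte-like cells, on 77 and 5. Notch2 was -2.02 in Paneth-like cells, where 0 UMIs were seen after irradiation, and 1.93 in enterocyte-like cells, on 26 and 3 UMIs. Hes1 was -1.05 over all epithelial cells and -2.28 in Paneth-like cells, against 1.13 in enterocyte-like cells. With every deposited barcode kept, the enterocyte-like values of Notch1 and Hes1 lay below 0. Median depth was 2944 UMIs in adult and 98803 in irradiated Paneth-like cells, and 31232 and 44601 in enterocyte-like cells, and the part of depth in these values was not tested.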

How the results depend on the processing

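No paired analysis was possible because each group has 1 library and no label ties a library to an animal of another. Of 180 counts of members past 2-fold under other settings, over 11 comparisons, 145 stayed within 1.5 times the reported count and 35 moved, and the cause was not tested. With 10 CPM added, 0 genes passed from E12.5 to E17.5, 1 from E17.5 to the adult (lower), 0 after irradiation, 0 between adult and E17.5 enteroendocrine-like cells, 2, 2 and 3 in enteroendocrine-like against other cells (E17.5, adult, irradiated), and 1, 0 and 0 in Atoh1-positive cells. Averaging CPM over cells, 7 passed from E12.5 to E17.5 (5 higher, 2 lower), 1 after irradiation, 2 in each of the pair of enteroendocrine-like comparisons across libraries, and 5 and 3 in adult and irradiated Atoh1-positive cells. With cells thinned, 5 passed from E17.5 to the adult (0 higher, 5 lower), 1 after irradiation, 2 between adult and E17.5 enteroendocrine-like cells, 3 in adult enteroendocrine-like against other cells and 6 in E17.5 Atoh1-positive cells. After irradiation 1 passed with every barcode, the stricter cell filter, edgeR TMM factors and median-of-ratios size factors. Between adult and E17.5 enteroendocrine-like cells 2 passed with the stricter filter and at resolution 0.5, 3 with 0.1 CPM added, 0 at a minimum of 100 UMIs and 0 without clusters led by Ppy, an alternative chosen after seeing the data. In Atoh1-positive cells, both scalings gave 5 in the adult and 3 after irradiation, all higher, and a minimum of 100 UMIs gave 1 in the adult.

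Values that changed sign were Dll4 in irradiated Atoh1-positive cells (0.34 with TMM, 0.37 with median-of-ratios factors and 0.55 thinned), and in adult against E17.5 unassigned cells Atoh1 (-0.15 with every barcode, -1.52 at resolution 2) and Dll4 (-0.18 thinned). With every barcode, enterocyte-like cells after irradiation gave -2.53 for Notch1, -0.80 for Jag1 and -0.16 for Hes1. Jag1 in irradiated tuft-like against enteroendocrine-like cells was 0.0052 under the stricter filter. Under 20 cells remained, and no value was given, for adult (9 cells) and E17.5 unassigned (2 cells) Atoh1-positive cells when thinned, for adult unassigned cells under the stricter filter, and for adult enterocyte-like cells under that filter and at resolution 0.5. Genes under about 1 CPM, such as Gfi1, rest on few UMIs.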
